A study of Mus musculus with 12 samples.

Results

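Ccl5-high CD8 T cells of the mouse spleen were taken as the cells that the authors annotated as CD8 and in which the depth-adjusted value of Ccl5 was at least 3. Of 22285 spleen cells, 1646 were annotated as CD8 and 722 of those met the rule. The rule kept 151 cells in SLE.yaa 1 and 287 in SLE.yaa 2, against 116 in WT 1 and 168 in WT 2. The other 924 CD8 cells, with a Ccl5 value under 3, are called Ccl5-low below and numbered 140 and 51 in the SLE.yaa mice, against 332 and 401 in the WT mice.

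The data came from 4 male mice, 2 of strain B6.Sle1yaa (SLE.yaa) and 2 of strain C57BL/6 (WT). B6.Sle1yaa joins 2 lupus alleles: Sle1, which maps to chromosome 1, and Yaa, in which the end of the X chromosome with Tlr7 was moved to the Y. The deposited age was 14.9 in both SLE.yaa mice and 14.4 in both WT mice with no time unit stated, so age cannot be told apart from strain. Leukocytes were selected from the spleen by magnetic beads against CD45 and loaded into 10x Genomics droplets, and T cell and B cell receptor libraries were made from the same mice. The labels mention chimeras beside the condition, without saying whether these 4 mice were chimeras.

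CD8 T cells leave the thymus as naive cells that circulate through lymphoid organs with the help of the chemokine receptor Ccr7. After a T cell receptor meets its peptide on MHC class I, the cell divides into a clone, and its effector and memory descendants store granzymes and perforin and keep the chemokine gene Ccl5 switched on. Repeated stimulation adds inhibitory receptors such as PD-1 (Pdcd1), LAG-3 (Lag3) and TIGIT (Tigit). Memory-like CD8 cells also arise without infection in unmanipulated mice, and in that state they are known for Eomes, Cxcr3 and the interleukin 15 receptor chain Il2rb.

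The T cell receptor tells which of these cells descend from 1 parent, because each clone carries its own pair of joined alpha and beta segments. A clone here is a set of cells of 1 mouse with the same nucleotides in CDR3, the loop that touches the peptide, of both chains. The 3 largest clones among the Ccl5-high cells were all found in SLE.yaa mice. Their CDR3 sequences are shown from 5′ to 3′, because sharing of these exact nucleotides is what joins cells into a clone. Capitals mark the first codon, the conserved cysteine near the end of the V segment, and the last codon, the phenylalanine of the J segment.
SLE.yaa 2, 8 cells, alpha (TRAV6-7-DV9, TRAJ52): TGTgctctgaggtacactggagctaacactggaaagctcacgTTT
SLE.yaa 2, 8 cells, beta (TRBV26, TRBJ1-5): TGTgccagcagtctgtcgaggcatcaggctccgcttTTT
SLE.yaa 1, 4 cells, alpha (TRAV5-4, TRAJ43): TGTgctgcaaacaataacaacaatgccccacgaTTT
SLE.yaa 1, 4 cells, beta (TRBV3, TRBJ2-7): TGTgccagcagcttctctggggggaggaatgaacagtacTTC
SLE.yaa 2, 3 cells, alpha (TRAV6D-5, TRAJ9): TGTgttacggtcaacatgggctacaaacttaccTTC
SLE.yaa 2, 3 cells, beta (TRBV15, TRBJ1-1): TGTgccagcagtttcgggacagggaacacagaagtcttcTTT
The alpha segments lie on chromosome 14 and the beta segments on chromosome 6 of GRCm38.

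An alpha and a beta chain that could be told apart, a usable pair, were read in 93 and 117 Ccl5-high cells of the SLE.yaa mice, against 68 and 85 of the WT mice. That is 61.6% and 40.8% of the cells in the SLE.yaa mice, against 58.6% and 50.6% in the WT mice. Clones of at least 2 Ccl5-high cells held 14 of 93 cells (15.1%, exact 95% interval 8.48 to 23.97) in SLE.yaa 1 and 25 of 117 (21.4%, 14.3 to 29.9) in SLE.yaa 2. In the WT mice no Ccl5-high cell shared its usable pair with another Ccl5-high cell. With a count of 0, the exact 95% interval reached up to 5.28% in WT 1 and 4.25% in WT 2. These intervals cover counting error only and treat cells as independent, which cells of 1 clone are not. The share also depends on how many cells were read, so the intervals do not bound the share of expanded cells in a mouse. The share averaged 18.2% ± 4.46 in SLE.yaa and 0% in WT (SD, n = 2 each), and the exact two-sided permutation test over mice gave p = 0.333, the smallest that 2 against 2 mice allow.

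The clones numbered 6 in SLE.yaa 1 and 9 in SLE.yaa 2. With each mouse thinned at random to 68 cells, the share in clones was 11.8% and 15.7% in the SLE.yaa mice, against 0% in both WT mice. Among Ccl5-low cells with a usable pair, 0 of 99 and 0 of 25 cells in the SLE.yaa mice shared a receptor, against 0 of 198 and 0 of 237 in the WT mice. The clones of Ccl5-high cells reached 4 cells in SLE.yaa 1 and 8 in SLE.yaa 2, so the cells of repeated receptors were spread over many small clones.

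The 3 largest clones differed in what their cells expressed. In the clone of 8 cells, Cd8b1 was detected in 8, Gzmk in 4, Cx3cr1 in 3, Pdcd1 in 2 and Eomes in 1. In the clone of 4 cells, Gzmk, Pdcd1, Lag3 and Eomes were each detected in 4, Gzmb in 3 and Cx3cr1 in 0. In the clone of 3 cells, Gzmk, Gzmb, Cxcr3 and Eomes were each detected in 3 and Pdcd1 in 1. Cells of 1 clone are not independent, so these counts describe the clones and are not tested.

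Clone cells were set beside the cells with a receptor of their own. Gzmb, the gene of the serine protease granzyme B, was detected in 7 of 14 clone cells and 27 of 79 other cells in SLE.yaa 1. In SLE.yaa 2 it was detected in 13 of 25 clone cells and 27 of 92 others. Il7r, the receptor for the survival cytokine interleukin 7, went the other way, with 21.4% against 59.5% in SLE.yaa 1 and 40.0% against 52.2% in SLE.yaa 2. Lag3, Eomes and Cxcr3 differed in direction between the mice. Lag3 was detected in 57.1% of clone cells against 26.6% of the others in SLE.yaa 1 and in 28.0% against 40.2% in SLE.yaa 2. Eomes was detected in 85.7% against 46.8% in SLE.yaa 1 and in 44.0% against 51.1% in SLE.yaa 2. Cxcr3 was detected in 7 of 14 clone cells and 56 of 79 others in SLE.yaa 1, and in 18 of 25 and 53 of 92 in SLE.yaa 2. Median UMI counts were 4254.5 in clone cells and 5834 in the others in SLE.yaa 1, and 4330 and 4408.5 in SLE.yaa 2, and the part of depth in these shares was not tested. Cells of 1 mouse are not replicates, so these shares carry no test.

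Receptors were also shared with cells outside the class. In SLE.yaa 1, 2 Ccl5-low CD8 cells carried a receptor found in a Ccl5-high cell. In SLE.yaa 2 the sharing cells were annotated as B-ISG (1 cell) and neutrophils (PMN, 1 cell). Cells with receptors but without expression values shared one too, 11 and 11 in the SLE.yaa mice, against 2 and 0 in the WT mice. In WT 1, a single Ccl5-high cell with TRAV7-3 and TRBV3, in which neither Cd4, Cd8a nor Cd8b1 was detected, shared its receptor with 13 cells annotated as CD4. Cd4 was detected in 11 of those 13 and Cd8a or Cd8b1 in 0. A pair of SLE.yaa 2 clones also held Cd4 without Cd8a or Cd8b1, in 2 of 2 and 1 of 2 cells. Restricted to cells with Cd8a or Cd8b1 and without Cd4, the share in clones was 16.2% and 23.3% in the SLE.yaa mice, against 0% in both WT mice.

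**Figure D1:**
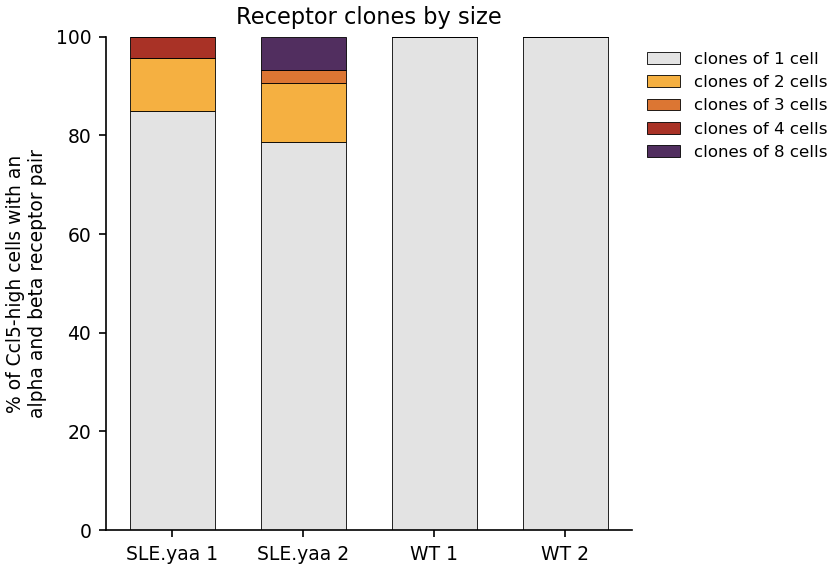
Receptor clones among Ccl5-high CD8 T cells: the plot gives each mouse's cells with a usable receptor pair by the size of their clone, with the SLE.yaa mice left of the WT mice. Clones of at least 2 cells hold 15.1% and 21.4% of the cells in the SLE.yaa mice, against 0% in both WT mice.

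Ccl5-high cells made up more of the CD8 compartment in the SLE.yaa mice. They were 51.9% of CD8 cells in SLE.yaa 1 (exact 95% interval 46.0 to 57.8) and 84.9% in SLE.yaa 2 (80.6 to 88.6), against 25.9% in WT 1 (21.9 to 30.2) and 29.5% in WT 2 (25.8 to 33.5). The groups did not overlap, and the exact permutation test over mice gave its smallest p, 0.333. As a share of all cells the class stood at 3.04% and 4.68% in the SLE.yaa mice, against 2.11% and 2.95% in the WT mice. That log2 change of 0.61 was not called (adjusted p = 0.259, edgeR's quasi-likelihood test on cells per mouse over 13 types). Ccl5-low cells were 2.82% and 0.832% of all cells in the SLE.yaa mice, against 6.04% and 7.04% in the WT mice, a log2 change of -1.85 that passed (adjusted p = 0.0144). Shares of captured cells do not give cell numbers in the spleen.

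**Figure D2:**
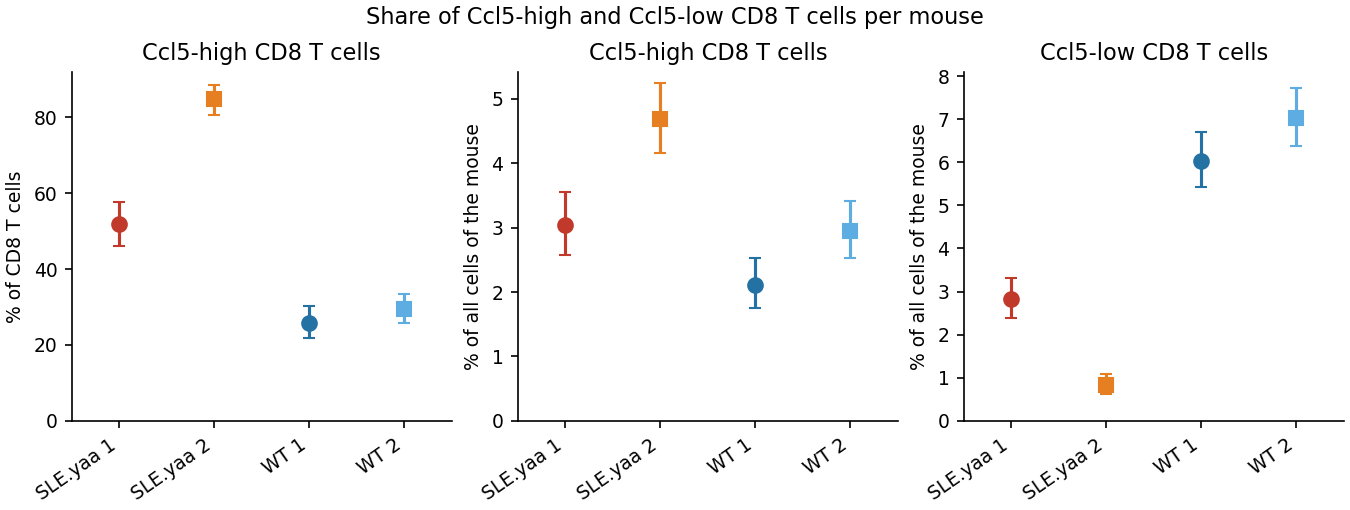
Ccl5-high CD8 T cells as a percent of CD8 cells (left) and of all cells (middle), and Ccl5-low cells as a percent of all cells (right), 1 point per mouse, with exact 95% binomial intervals as bars and the SLE.yaa mice left of the WT mice. Among CD8 cells the SLE.yaa mice stand at 51.9% and 84.9%, above the 25.9% and 29.5% of the WT mice.

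The cutoff fell in a thin region of the distribution of Ccl5, the gene of a chemokine that attracts T cells and monocytes. Ccl5 stood at 0 in 854 of the CD8 cells, at 1 in 53 and at 2 in 17, just outside the rule, and at 3 in 15 and at 4 in 15, just inside it. Within the class the median Ccl5 value was 74 and 117 in the SLE.yaa mice, against 23 and 30 in the WT mice, and the highest were 485 and 522 against 167 and 232. These values chose the cells and carry no test. Ccl5 also reached 3 in 331 of 332 NK cells, 160 of 2816 CD4 cells, 102 of 701 dendritic cells and 9 of 11450 B cells. Of the 160 CD4 cells, 59 and 77 came from the SLE.yaa mice, against 14 and 10 from the WT mice.

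The median UMI count of the Ccl5-high cells was 5496 and 4049 in the SLE.yaa mice, against 5687 and 6223.5 in the WT mice. Levels below are mean depth-adjusted values per mouse and class, scaled to 1000000 (vpm). "Detected" means a depth-adjusted value of at least 1. UMI counts per gene were not used here, so cells could not be thinned to 1 depth. Of 510 cells whose barcode was found in more than 1 library, 17 were Ccl5-high cells.

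The class was checked against the markers of memory and effector CD8 cells. Eomes, a T-box factor of memory and effector CD8 cells, was detected in 55.0% and 46.7% of the cells of the SLE.yaa mice, against 28.4% and 41.1% of the WT mice. Cxcr3, a receptor that guides effector and memory T cells to inflamed tissue, was detected in 65.6% and 58.2%, against 58.6% and 61.9%. Gzmk, the gene of granzyme K, was detected in 46.4% and 58.5%, against 6.90% and 6.55%. At least 1 of the 3 was found in 90.1% and 87.8% of the cells in the SLE.yaa mice, against 72.4% and 78.6% in the WT mice. In B cells, which should lack it, Gzmk was detected in 0.0811% and 0.0408%, against 0% and 0.0294%, at a median UMI count of 3830.

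The label CD8 held less evenly. Cd8a or Cd8b1, the chains of the CD8 co-receptor, was detected in 78.1% and 78.7% of the Ccl5-high cells of the SLE.yaa mice, against 68.1% and 69.0% in the WT mice. Neither chain nor Cd4 was detected in 11.3% and 11.1%, against 29.3% and 28.6%. Cd4 was detected in 13.9% and 12.9%, against 4.31% and 2.98%. Klrb1c or Ncr1, receptors of NK cells and of some unconventional T cells, was detected in 5.30% and 3.83%, against 19.0% and 12.5%. The class therefore holds cells whose CD8 identity rests on the authors' annotation alone, and they were a larger share in the WT mice.

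Set against the Ccl5-low cells of the same mice, and as a description because Ccl5 and all other genes went into the choice, the class carried the genes of killing and of migration. Gzmb stood at 194 and 257 vpm in the Ccl5-high cells of the SLE.yaa mice and 42.7 and 19.1 vpm in those of the WT mice, while the Ccl5-low cells held 2.90 and 0 vpm and 0 and 0 vpm. Ccr2, a receptor for monocyte-attracting chemokines, stood at 92.3, 127, 42.7 and 24.5 vpm in Ccl5-high cells and 10.2, 0, 4.50 and 0 vpm in Ccl5-low cells of SLE.yaa 1, SLE.yaa 2, WT 1 and WT 2. Tbx21, which encodes the effector factor T-bet, was similar across the 4 mice, at 113, 93.9, 119 and 101 vpm in Ccl5-high cells and 18.9, 8.49, 10.5 and 3.02 vpm in Ccl5-low cells. Among the 15 genes with the highest mean difference between the classes were also S100a6, S100a4, Ccl4, Gzma, Gzmk, Gzmm, Il18rap, Ctla2a and the lectin receptors Klrk1, Klre1, Klrc1 and Klra7.

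The genes that stood lowest in Ccl5-high cells included members of the naive T cell list. Igfbp4 stood at 16.5, 1.77, 44.8 and 25.9 vpm in Ccl5-high cells and 462, 496, 322 and 311 vpm in Ccl5-low cells, in the same mouse order. Ccr7, which brings naive cells into lymphoid tissue, stood at 102, 50.5, 85.3 and 110 vpm in Ccl5-high cells, against 379, 204, 385 and 414 vpm in Ccl5-low cells. Dapl1, Ccr9, Itgae, Rgcc, Actn2, Tmie, Slc28a2b and Gm43698 complete that group of 10, and each was lower in the Ccl5-high cells of all 4 mice.

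Inside the class, the genes called higher in SLE.yaa than in WT cells included genes of granules, inhibitory receptors and migration. The genes called lower included naive T cell and NK receptor genes, and chemokine ligand and memory genes were called in both directions. Over 8287 genes that reached 10 vpm in 2 mice or more, 293 were higher in SLE.yaa (3.54%) and 140 lower (1.69%), 433 in all (5.23%), at an adjusted p under 0.05. Leaving out WT 2 gave a total of 140, leaving out SLE.yaa 2 gave 156, leaving out WT 1 gave 159 and leaving out SLE.yaa 1 gave 369. Values of log2(vpm + 10) were tested per mouse with limma and Benjamini-Hochberg adjustment, a scale that understates changes of low genes, and Ccl5 was left out. A gene could pass the 10 vpm filter through 1 group alone, and its test is then not independent of that choice. Such genes are included in the list counts below. Both SLE.yaa mice lay above both WT mice in 21% of the genes and below both in 23.3%. Counts within the gene lists below are to be read beside these shares and the shares called. Across the genes tested the log2 change had a median of -0.0167, and with scaling to the sum alone it was -0.12 and the split was 209 higher and 175 lower. With 2 mice a group, the p-values lean on the spread shared over genes (68.9 prior degrees of freedom against 2 of the mice themselves).

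Summed B cell, plasma cell and myeloid markers were higher in both SLE.yaa mice than in both WT mice, while neutrophil sums overlapped. Summed levels of 12 B cell markers were 2882 and 2814 vpm in Ccl5-high cells of the SLE.yaa mice, against 371 and 1124 vpm in those of the WT mice, and 10 of 12 were called higher (of these, Cd74, Cd79a and Ms4a1 lost the call without WT 1, with changes of 0.74, 0.48 and 0.14). Igkc, an immunoglobulin light chain, was detected in 51.7% and 44.9% of the cells, against 5.17% and 5.36%. Of the 9 plasma cell markers 4 were tested and called higher, with sums of 636 and 1810 vpm against 8.53 and 12.3 vpm and Tnfrsf17 at 0 in all mice. Of the 13 myeloid markers 6 were tested and 4 called higher (sums of 275 and 622 vpm against 137 and 162 vpm). Of the 10 neutrophil markers 2 were tested and 1 was called higher (31.7 and 449.9 vpm against 29.9 and 87.2 vpm), with Mmp8 at 0. An immunoglobulin contig was read in 3.97% and 3.14% of the Ccl5-high cells in the SLE.yaa mice, against 0.862% and 4.76% in the WT mice and 71.4% to 87.9% of B cells over the 4 mice.

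Calls were therefore repeated on fewer cells. No doublet caller was run here, and the sources used here do not say how the authors treated doublets. Without cells holding any of 10 defining B cell or myeloid markers (103 and 161 cells left in the SLE.yaa mice, against 99 and 139 in the WT mice), 411 genes were called. A second step left out cells holding at least 2 markers of the B cell, plasma cell, myeloid, neutrophil and erythroid lists pooled. The NK cell and CD4 T cell marker lists were not used for it. It left 32 and 24 cells in the SLE.yaa mice, against 69 and 100 in the WT mice. In these cells 4 genes were called, all higher: Gzmk (3.89), Lag3 (3.33), Ly6a (2.98) and Tmsb4x (1.56). Most calls named below were lost in that second step, which keeps few cells. Genes at 10 vpm in only 2 mice, such as Ccl3, Ifng and Ctla4, could be run in 2 of the 4 fits that leave out 1 mouse. They could therefore not be called in all 4. Of 99 named genes that were called, 35 were called in each of the 4 fits that leave out 1 mouse.

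Cytotoxic genes are given first. Of 20 genes of the cytotoxic and effector list, 10 were higher and 0 lower, with a median log2 change of 0.75. Over all genes tested, 3.54% were higher. Gzmk, at chr13:113171630-113180965 of GRCm38, stood at 454.5 and 496.9 vpm in the SLE.yaa mice, against 55.5 and 20.4 vpm in the WT mice (log2 change 3.44 ± 0.21 SE, adjusted p = 1.25e-21). The groups lay far apart, and granzyme K is a serine protease of the granules that is known from memory and aged T cells. Gzmb stood at 194 and 257 vpm, against 42.7 and 19.1 vpm (log2 change 2.58 ± 0.22, adjusted p = 4.93e-15). Cx3cr1, the fractalkine receptor of circulating effector cells, stood at 56.5 and 104 vpm, against 14.9 and 5.45 vpm (2.15 ± 0.26, adjusted p = 3.64e-09). These 3 were called whichever mouse was left out.

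Ifng, the gene of interferon gamma, stood at 39.9 and 39.0 vpm in the SLE.yaa mice, against 4.27 and 6.81 vpm in the WT mice (log2 change 1.68, adjusted p = 9.21e-06). It was detected in 13.9% and 10.5% of the cells, against 0.862% and 2.98%. Both WT levels lay under 10 vpm, so Ifng entered the test through the SLE.yaa mice alone. Klrg1 and Prdm1, named below, entered it in the same way. Nkg7, a granule protein, stood at 2526 and 3476 vpm, against 1431 and 1199 vpm (1.17, adjusted p = 6.35e-06), and lost its call without WT 2 (adjusted p = 0.0723). Id2, a factor of effector cells, stood at 515 and 650 vpm against 350 and 168 vpm (1.22, adjusted p = 9.21e-06), and without WT 2 its change was 0.71 (adjusted p = 0.190). Prf1, Klrg1, Prdm1 and Zeb2 were also higher, and each lost its call when 1 mouse was left out (Prf1 without SLE.yaa 1, WT 1 or WT 2, Klrg1 and Prdm1 without either WT mouse, Zeb2 without SLE.yaa 2 or WT 2, with a change of 0.20 without WT 2 and 1.496 without WT 1).

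Gzma, the gene of granzyme A, did not follow. It stood at 183 and 85.0 vpm in the SLE.yaa mice, against 224 and 20.4 vpm in the WT mice, so the groups overlapped (log2 change 0.68, adjusted p = 0.284). Leaving out WT 1 gave 2.15 and leaving out WT 2 gave -0.79. Tbx21 had a log2 change of -0.08 (adjusted p = 0.911).

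Chemokine genes split in direction. Ccl3, which encodes a chemokine of activated T cells and macrophages, stood at 103 and 155 vpm in the SLE.yaa mice, against 4.27 and 2.73 vpm in the WT mice (log2 change 3.34 ± 0.25, adjusted p = 1.02e-17). Both WT mice lay under 10 vpm, so Ccl3 entered the test through the SLE.yaa mice alone. Ccl4, its neighbour on the chromosome, stood at 365 and 262 vpm, against 27.7 and 129 vpm (2.14 ± 0.25, adjusted p = 1.04e-09), and its change was 1.20 without WT 1. The annotated spans of Ccl3 and Ccl4 overlap on chromosome 11, so reads between them could be split by the counting. Xcl1, which attracts cross-presenting dendritic cells, was lower, at 35.8 and 32.8 vpm in the SLE.yaa mice, against 169 and 202 vpm in the WT mice (-2.13 ± 0.21, adjusted p = 1.02e-12). It was detected in 12.6% and 7.67% of the cells, against 37.9% and 39.3%, and the groups did not overlap by either measure. Of 4 ligands tested, these were the 3 called.

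Among 8 chemokine receptors tested, 3 were higher and 0 lower. Ccr2 stood at 92.3 and 127 vpm, against 42.7 and 24.5 vpm (1.47, adjusted p = 2.38e-06). Cx3cr1, described above, was also among the 3. Cxcr3 stood at 249 and 247 vpm, against 211 and 184 vpm, a log2 change of 0.32 that was not called (adjusted p = 0.417).

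Inhibitory receptors and the factors that accompany them in exhausted T cells were mostly higher. Of 22 genes tested, 13 were higher and 1 was lower, with a median log2 change of 1.15. The shares over all genes tested were 3.54% higher and 1.69% lower. Lag3, which binds MHC class II, stood at 172 and 151 vpm in the SLE.yaa mice, against 4.27 and 10.9 vpm in the WT mice (3.31 ± 0.24, adjusted p = 1.76e-18). Tigit, which competes with an activating receptor for poliovirus receptor family ligands, stood at 140 and 158 vpm, against 25.6 and 21.8 vpm (2.24, adjusted p = 9.73e-13). Pdcd1 stood at 93.7 and 60.2 vpm, against 10.7 and 8.18 vpm (2.14, adjusted p = 1.44e-09).

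Tox, a nuclear factor of exhausted T cells, stood at 142 and 208 vpm in the SLE.yaa mice, against 38.4 and 45.0 vpm in the WT mice (log2 change 1.82, adjusted p = 6.35e-10). Maf, a factor linked to interleukin 10 and to inhibitory receptors, changed by 1.91. Lag3, Tigit, Pdcd1, Tox and Maf were called in each fit that left out 1 mouse. Ctla4, at 22.04 and 22.1 vpm against 0 and 2.73 vpm, changed by 1.51 (adjusted p = 0.000288). Ctla4 passed the 10 vpm filter through the SLE.yaa mice alone, as did Entpd1, Tnfrsf4, Rgs16, Havcr2 and Nrp1, named next. Bhlhe40, Entpd1, Tnfrsf4, Rgs16, Havcr2 and Nrp1 were higher too, and each lost the call when 1 mouse was left out (Bhlhe40 without SLE.yaa 2 or WT 2, Entpd1, Tnfrsf4 and Rgs16 without WT 2, Havcr2 without WT 1, Nrp1 without either WT mouse). Ctla4 and Tnfrsf4 also stand on the CD4 marker list.

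Cd160, an inhibitory receptor shared by NK cells and memory CD8 cells, was the lower gene of the list. It stood at 39.9 and 47.8 vpm in the SLE.yaa mice, against 145 and 134 vpm in the WT mice (log2 change -1.47, adjusted p = 3.31e-07). Cd160 was detected in 14.6% and 12.2% of the cells, against 37.1% and 31.5%.

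**Figure D3:**
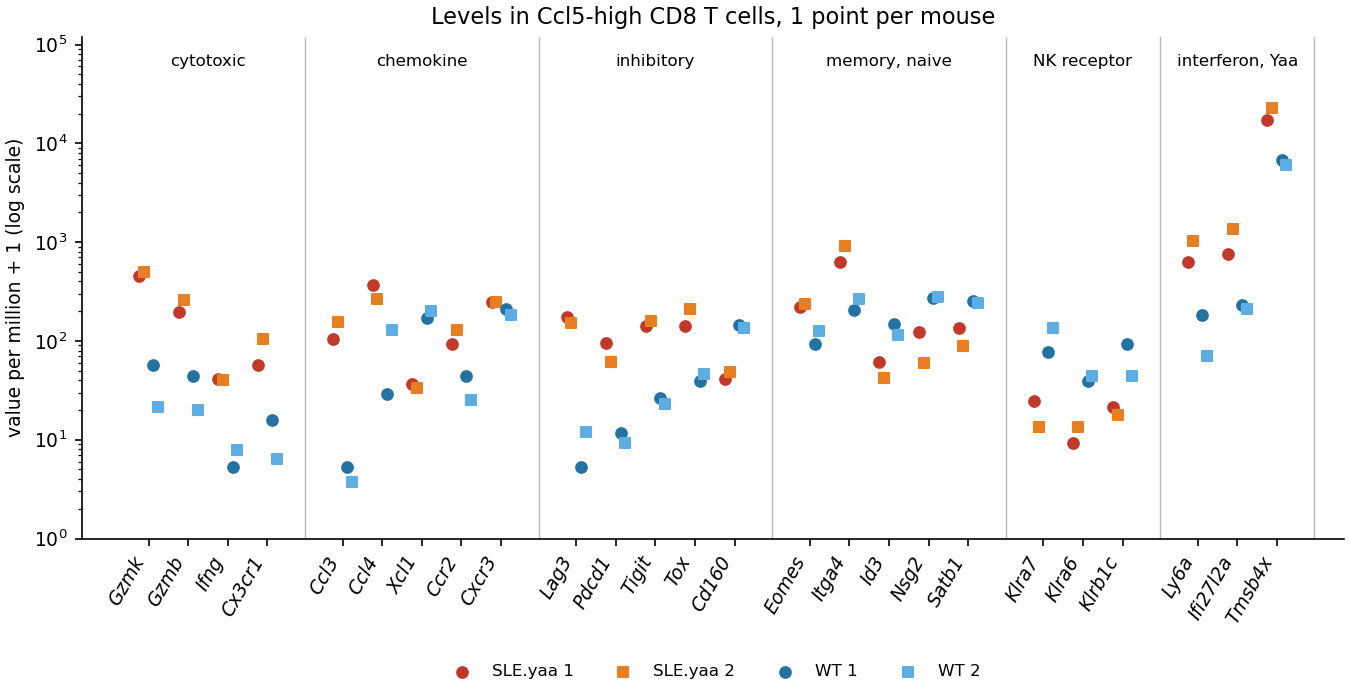
Levels of named genes in Ccl5-high CD8 T cells, 1 point per mouse, on a log axis of the vpm value plus 1, grouped by role, with the SLE.yaa points left of the WT points. Gzmk stands at 454.5 and 496.9 in the SLE.yaa mice, against 55.5 and 20.4 in the WT mice, while Xcl1 stands at 35.8 and 32.8 against 169 and 202.

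The memory list moved in both directions, with 3 higher and 2 lower of 14 and a median log2 change of -0.23. Itga4, the alpha 4 integrin that lets activated T cells cross vessel walls, stood at 635 and 924 vpm in the SLE.yaa mice, against 205 and 267 vpm in the WT mice (1.67 ± 0.19, adjusted p = 1.42e-10). Eomes stood at 219 and 234 vpm, against 91.7 and 124 vpm (1.02, adjusted p = 0.000145), and without WT 1 it changed by 0.82 (adjusted p = 0.0897). Itgb1 was higher too (0.97), with the call lost without WT 1. Id3, a factor of long-lived memory and precursor cells, was lower, at 60.6 and 40.7 vpm against 147 and 113 vpm (-1.22, adjusted p = 3.68e-05). The survival gene Bcl2 was lower by 0.74 on the log2 scale, at 198 and 181 vpm against 318 and 330 vpm, and was not called without SLE.yaa 2, WT 1 or WT 2. Il2rb stood at 474 and 488 vpm, against 638 and 704 vpm, with no call (-0.47, adjusted p = 0.120).

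Naive T cell genes were lower where they were called, 8 of 17 against 0 higher, with a median log2 change of -0.40. Over all genes tested, 1.69% were lower. Nsg2, a neuronal vesicle protein gene that is also on in naive T cells, stood at 123 and 58.5 vpm in the SLE.yaa mice, against 269 and 279 vpm in the WT mice (-1.58, adjusted p = 2.97e-08). Satb1, a chromatin organiser of developing T cells, stood at 135 and 88.6 vpm, against 254 and 238 vpm (-1.10, adjusted p = 4.36e-05). Both were called in each fit without 1 mouse. Lef1, Actn1, Igfbp4, Txk and Dapl1 were lower as well, each with the call lost without 1 mouse (SLE.yaa 2 or WT 2 for Lef1, WT 1 for Actn1, SLE.yaa 2 or WT 1 for Igfbp4, and SLE.yaa 2, WT 1 or WT 2 for Txk and Dapl1). Without SLE.yaa 2 the changes were -0.66 for Lef1, -0.74 for Igfbp4 and -0.48 for Dapl1. Tcf7 (-0.37), Ccr7 (-0.38) and Il7r (-0.27) were not called, with adjusted p of 0.293, 0.420 and 0.522.

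Of 16 NK receptor genes tested, 11 were lower and 0 higher, with a median log2 change of -0.97. Over all genes tested, 1.69% were lower. Of the 17 genes of the list, 13 lie together on chromosome 6 of GRCm38 between 128778485 and 130386874. Klra7, a Ly49 receptor for MHC class I, stood at 23.4 and 12.4 vpm in the SLE.yaa mice, against 76.8 and 135 vpm in the WT mice (-2.04, adjusted p = 1.83e-09). Klra6, of the same family, stood at 8.26 and 12.4 vpm, against 38.4 and 43.6 vpm (-1.33, adjusted p = 0.000311). Klrb1c, the NK1.1 receptor, stood at 20.7 and 16.8 vpm, against 91.7 and 43.6 vpm (-1.36, adjusted p = 0.000111), and changed by -0.90 without WT 1 (adjusted p = 0.132). Ly49 genes are near copies of each other and can exchange reads, so the change of any single one is uncertain. Klra1, Klra3, Klra9, Klrc1, Klrc2, Klrd1, Klre1 and Ncr1 were lower by 0.80 to 1.48 on the log2 scale.

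Of those 8, Klra1, Klra3, Klra9 and Ncr1 passed the 10 vpm filter through the WT mice alone. They could be tested in 2 fits without 1 mouse, and Klra1 and Klra9 were called in both. Apart from Klra1 and Klra9, each of the 8 lost its call without at least 1 mouse (Klra3 and Ncr1 without SLE.yaa 2, Klrd1 without WT 2, Klrc1 without either WT mouse, Klrc2 whichever was left out). Klre1 lost it without WT 2 and without SLE.yaa 1, where its change was -0.69. In cells with Cd8a or Cd8b1 and no Cd4, the calls of Klra1 (-0.57), Klrd1 (-0.57), Klrc1 (-0.51) and Klrc2 (-0.78) were lost, and Ncr1 and Klra9 were not tested. In cells with a usable receptor pair, an alternative added after seeing the data, those of Klrb1c (-0.57), Klra6 (-1.26), Klre1 (-0.92), Klrd1 (-0.72), Klrc1 (-0.37), Klrc2 (-1.06) and Ncr1 (-1.10) were lost. Cells with neither CD8 chain nor Cd4 were 11.3% and 11.1% of the class in the SLE.yaa mice, against 29.3% and 28.6% in the WT mice. Summed levels of 12 NK cell markers overlapped between groups, at 645 and 701 vpm in the SLE.yaa mice and 781 and 623 vpm in the WT mice. That list also holds Gzma and Eomes, so the sum does not follow NK receptors alone. Of its 9 genes tested, Eomes was called higher and Klrb1c, Klre1 and Ncr1 lower. NK cells themselves were 1.01% and 0.750% of all cells in the SLE.yaa mice, against 2.16% and 2.05% in the WT mice.

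Of 20 genes of migration and the actin cytoskeleton tested, 13 were higher and 0 lower, with a median log2 change of 0.77. Over all genes tested, 3.54% were higher. S100a4, a calcium-binding protein of motile cells, stood at 270 and 555 vpm in the SLE.yaa mice, against 93.9 and 68.1 vpm in the WT mice (2.14, adjusted p = 9.73e-13). S100a6 stood at 956 and 2022 vpm, against 386 and 394 vpm (1.81, adjusted p = 8.72e-11). Lgals3, a lectin that binds cell-surface sugars, stood at 75.8 and 125 vpm, against 21.3 and 12.3 vpm (2.03, adjusted p = 1.83e-09). SLE.yaa 2 was the higher SLE.yaa mouse for each of these 3. S100a10 (1.22), S100a11 (1.48) and Itga4 were also called whichever mouse was left out. Lgals1, Itgb1, Emp3, Crip1, Itgal, S100a13 and Ahnak were not (Lgals1 without WT 2, Itgb1 without WT 1, the other 5 without SLE.yaa 2, WT 1 or WT 2). Without SLE.yaa 2 the changes were 0.70 for Lgals1, 0.58 for Emp3, 0.44 for Crip1, 0.46 for Itgal, 0.46 for S100a13 and 0.21 for Ahnak.

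Of 34 interferon-stimulated genes tested, 7 were higher and 0 lower, with a median log2 change of 0.40, where 3.54% of all genes tested were higher. Both SLE.yaa mice lay above both WT mice in 20 of the 34, and in 21% of all genes tested. Ly6a, the surface protein Sca-1, stood at 634 and 1032 vpm in the SLE.yaa mice, against 183 and 69.5 vpm in the WT mice (2.72 ± 0.22, adjusted p = 1.98e-16). Ifi27l2a stood at 764 and 1357 vpm, against 233 and 210 vpm (2.16, adjusted p = 1.71e-14). Isg15, a ubiquitin-like protein and a common readout of type I interferon, stood at 68.9 and 104 vpm, against 111 and 30.0 vpm, with overlap (0.45, adjusted p = 0.408). Ifit1 stood at 17.9 and 38.1 vpm, against 32.0 and 16.4 vpm (0.14, adjusted p = 0.892).

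Samhd1, Slfn1, Zbp1 and Phf11b were higher and each lost the call without WT 2 (Zbp1, at 0.43 without WT 2, also without SLE.yaa 2, and Phf11b whichever mouse was left out). Of 15 GTPases induced by interferon gamma, 4 were higher (Iigp1, Gbp2, Gbp3 and Gbp6), with a median of 0.15, and none of the 4 kept its call in all fits without 1 mouse. Without WT 2, Iigp1 changed by 0.52 and Gbp2 by 0.36 (1.10 without WT 1), while Gbp3 and Gbp6 lost the call whichever mouse was left out.

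Genes of the lupus intervals were listed separately, since the SLE.yaa mice carry them in another form or copy number. Of 17 genes of the Yaa segment, 8 were tested and 2 were higher, and 7 of the 8 stood above both WT mice, with a median log2 change of 0.67. Over all genes tested, 3.54% were higher, and both SLE.yaa mice lay above both WT mice in 21%. Tmsb4x, the actin-binding thymosin beta 4 at chrX:167207093-167213479 of GRCm38, stood at 17223 and 22718.5 vpm in the SLE.yaa mice, against 6822 and 6011 vpm in the WT mice (1.63 ± 0.22, adjusted p = 4.85e-08). Prps2, of nucleotide synthesis, changed by 0.93 and lost its call without SLE.yaa 2 or WT 1. Of 17 genes tested of the Sle1 interval, 1 was called higher, close to the share over all genes, and 11 stood above both WT mice. The gene called was Slamf6, a receptor that binds itself between lymphocytes, at 180 and 223 vpm against 76.8 and 91.3 vpm (1.17, adjusted p = 1.61e-05).

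Of 16 genes of T cell receptor signalling, 2 were higher and 0 lower, where 3.54% of all genes tested were higher. Lat, the adaptor that links the receptor to downstream enzymes, stood at 866 and 881 vpm in the SLE.yaa mice, against 418 and 362 vpm in the WT mice (1.15, adjusted p = 2.47e-06). Cd28 was higher by 0.62 and lost the call whichever mouse was left out. Of 12 proliferation genes 3 were higher. Mki67, a protein of dividing cells, was detected in 7.28% and 8.01% of the cells, against 0.862% and 1.19% (1.29, adjusted p = 0.00251, lost without WT 1), while Top2a lost its call without WT 2 and Hmgb2 without SLE.yaa 2 (0.42), WT 1 or WT 2. Of 6 residency genes, Rgs1 was higher (1.24, adjusted p = 0.000169) and Xcl1 lower. Of 13 immediate early genes, Junb was higher (0.61) and lost its call without SLE.yaa 2, WT 1 or WT 2.

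Among the 15 highest changes outside these lists were Ptms (2.23), Gm30211 (2.13) and the plasma cell gene Jchain (4.12), which stood at 479 and 85.0 vpm in the SLE.yaa mice, against 2.13 and 2.73 vpm in the WT mice. Jchain passed the 10 vpm filter through the SLE.yaa mice alone. Ptms encodes parathymosin, an acidic chromatin protein, and stood at 147 and 240 vpm, against 23.5 and 43.6 vpm. Gm30211, with no assigned function, stood at 55.1 and 55.8 vpm, against 0 and 12.3 vpm. It was detected in 15.2% and 12.5% of the Ccl5-high cells, against 0% and 2.38%. In B cells it was detected in 42.9% to 48.1% over the 4 mice. The part of B cell RNA in its change was not tested beyond the fits on fewer cells. Among the 15 lowest outside the lists were Atp1b1, a sodium pump subunit (-1.79), Scmh1 (-1.53), Cuedc1, Ckb and Sh3pxd2a (each -1.40), Arl4d (-1.38) and Gpr15 (-1.33). Atp1b1 stood at 17.9 and 6.20 vpm, against 78.9 and 50.4 vpm. Scmh1, Cuedc1, Ckb and Sh3pxd2a passed the 10 vpm filter through the WT mice alone. Arl4d was not called without SLE.yaa 1 (-0.89) or WT 2, nor Gpr15 without SLE.yaa 2 or WT 2.

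Markers of the T cell lineages did not move alike. Cd8a (0.35, adjusted p = 0.345) and Cd8b1 (0.44, adjusted p = 0.160) were not called, nor was any of the 5 CD8 markers tested. Cd4 was called higher, at 55.1 and 66.4 vpm in the SLE.yaa mice, against 12.8 and 12.3 vpm in the WT mice (1.65, adjusted p = 1.91e-06). Summed levels of the 7 CD4 markers were 179 and 205 vpm, against 72.5 and 58.6 vpm, with 4 of 6 tested called higher. In cells with Cd8a or Cd8b1 and no Cd4, 252 genes were higher and 77 lower.

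Inside each mouse, the Ccl5-high cells with Gzmk differed from those without it, though the WT mice held few cells with Gzmk. Gzmk was detected in 70 of 151 cells of SLE.yaa 1 and 168 of 287 cells of SLE.yaa 2, against 8 of 116 in WT 1 and 11 of 168 in WT 2. Il7r was detected in 22.9% of the cells with Gzmk and 74.1% of the others in SLE.yaa 1, and in 35.7% and 76.5% in SLE.yaa 2. In the WT mice Il7r was detected in 37.5% and 36.4% of the cells with Gzmk, against 78.7% and 89.8% of the others. Il7r was thus detected in a smaller share of the cells with Gzmk in all 4 mice.

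Gzmb and inhibitory receptors went the other way. Gzmb was detected in 51.4% of the cells with Gzmk and 11.1% of the others in SLE.yaa 1, and in 42.9% and 15.1% in SLE.yaa 2. Pdcd1 was detected in 45.7% and 12.3% in SLE.yaa 1, and in 22.02% and 8.40% in SLE.yaa 2. Cxcr3 was near equal, at 65.7% and 65.4% in SLE.yaa 1 and 56.0% and 61.3% in SLE.yaa 2. The cells with Gzmk had lower UMI counts, with medians of 4881.5 and 6783 in SLE.yaa 1 and 3808.5 and 4523 in SLE.yaa 2. The part of depth was not tested, and cells of 1 mouse are not replicates, so no p is given.

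Gzmk and Cx3cr1 overlapped in part. Both were detected in 13 of 151 cells of SLE.yaa 1 and 46 of 287 cells of SLE.yaa 2, against 1 of 116 in WT 1 and 2 of 168 in WT 2. Gzmk without Cx3cr1 was found in 37.7% and 42.5% of the cells of the SLE.yaa mice, against 6.03% and 5.36% of the WT mice. Cx3cr1 without Gzmk was found in 4.64% and 6.62%, against 1.72% and 1.19%.

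**Figure D4:**
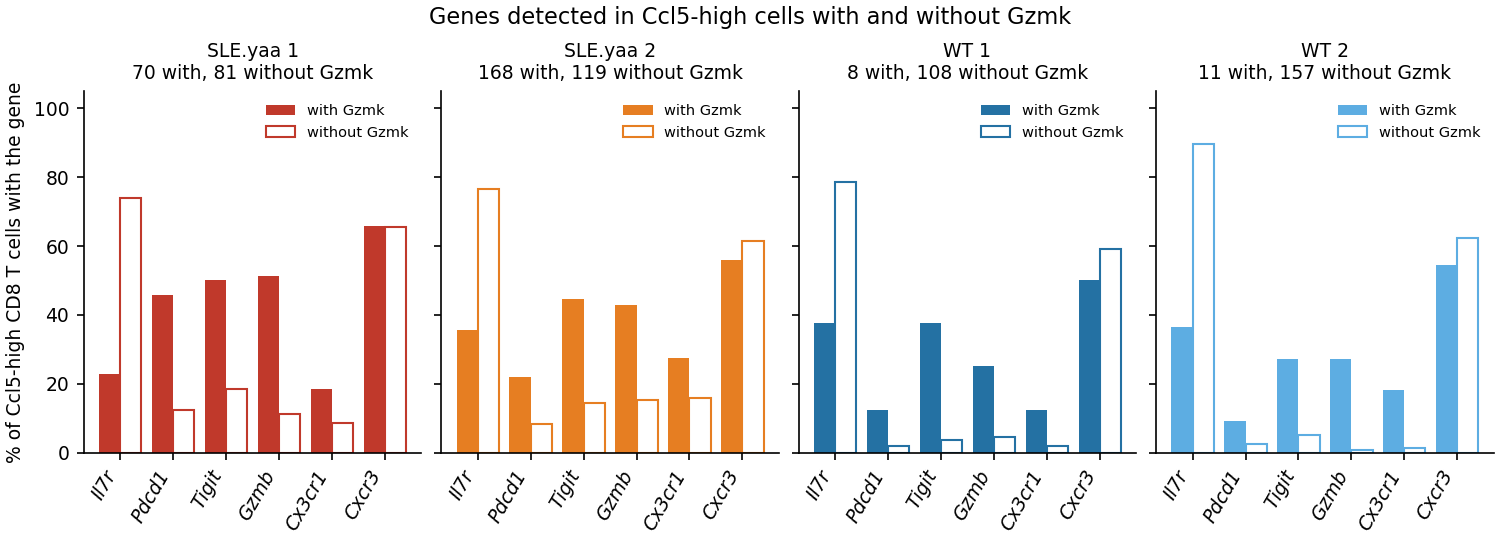
Percent of Ccl5-high CD8 T cells in which each gene was detected, for cells with Gzmk (filled bars) and cells without it (open bars), 1 panel per mouse. The WT panels rest on 8 and 11 cells with Gzmk. Il7r is detected in 22.9% and 35.7% of the cells with Gzmk in SLE.yaa 1 and SLE.yaa 2, against 74.1% and 76.5% of those without it.

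The change between SLE.yaa and WT was then compared between Ccl5-high and Ccl5-low cells on the differences within each mouse. In Ccl5-low cells 14 of 8261 genes were higher (0.169%) and 0 lower (0%) by limma at an adjusted p under 0.05, and 646 had an unadjusted p under 0.05. The SLE.yaa 2 value there rests on 51 cells. Among the 14 were Lag3, Ly6a, Tmsb4x, Gzmk, Eomes, Slamf6, Slamf7, Ly6c2, Ptms, Bcl3, Anxa2, Ptprk and Ighg2c. Of 7857 genes tested in both classes, the change itself differed for 162 (2.06%). Leaving out WT 2 gave 40, leaving out WT 1 gave 49, leaving out SLE.yaa 2 gave 108 and leaving out SLE.yaa 1 gave 521. It was 45 without cells holding a defining B cell or myeloid marker, an alternative chosen after seeing the data.

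Gzmk stood at 33.4 and 42.4 vpm in Ccl5-low cells of the SLE.yaa mice, against 1.499 and 0 vpm in those of the WT mice. Its log2 change was 3.44 in Ccl5-high and 2.15 in Ccl5-low cells, and that of Lag3 was 3.31 and 2.70. WT levels of Gzmk in Ccl5-low cells and of Lag3 in both classes lay near or under the pseudocount of 10, which holds these changes down, so they are not compared between the classes. Tox changed by 1.82 in Ccl5-high and 0.28 in Ccl5-low cells, a difference of 1.54 (adjusted p = 3.68e-05). For Ly6a the changes were 2.72 and 3.26, a difference of -0.54 ± 0.17 SE (adjusted p = 0.0967). Eomes, at 131 and 161 vpm in Ccl5-low cells of the SLE.yaa mice and 39.0 and 29.6 vpm in those of the WT mice, changed by 1.02 in Ccl5-high and 1.82 in Ccl5-low cells, a difference of -0.80 ± 0.24 (adjusted p = 0.0527).

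Id3, Ly6c2 and Itga4 were among the genes whose change differed between the classes. Id3 was lower in Ccl5-high cells of SLE.yaa mice (-1.22), while its change was 0.67 in Ccl5-low cells, at 139 and 153 vpm in the SLE.yaa mice against 89.9 and 86.3 vpm in the WT mice. Ly6c2, a Ly6C gene of memory CD8 cells, stood at 1371 and 1151 vpm in Ccl5-high cells of the SLE.yaa mice, against 1766 and 1781 vpm in those of the WT mice. In Ccl5-low cells it stood at 887 and 1460 vpm, against 443 and 391 vpm. Itga4 changed by 1.67 in Ccl5-high and 0.32 in Ccl5-low cells.

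**Figure D5:**
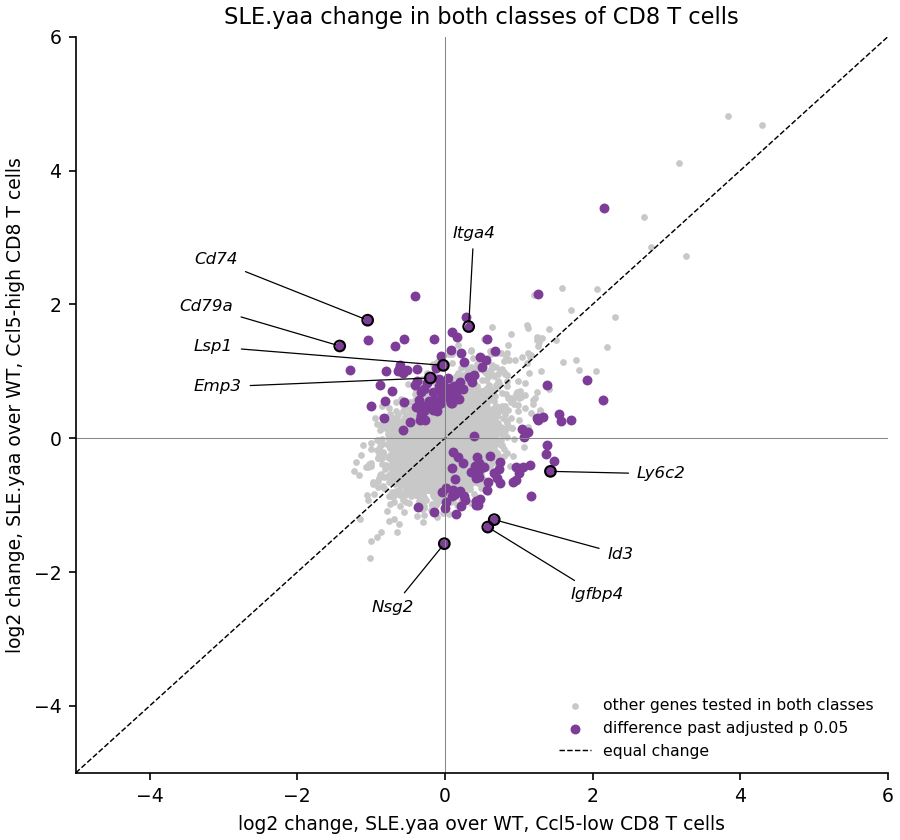
Log2 change of SLE.yaa over WT in Ccl5-high CD8 T cells (vertical) against that in Ccl5-low CD8 T cells (horizontal), 1 point per gene tested in both, with the line of equal change. The 162 genes whose change differed between the classes are coloured, and 9 of those with the smallest p are circled and named, among them Itga4 (1.67 against 0.32) above the line and Id3 (-1.22 against 0.67) below it.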

How the data were processed

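Per the submitters' processing notes, Cell Ranger 5.0.0, Seurat 4.0.0 and GRCm38 (mm10) were used, with no roles given. The deposited expression values are natural logs of 1 plus a whole number (within 1.64e-11), depth-adjusted by the authors in a way that no label or header describes. Sums of these per cell span 2663 to 6382, while deposited UMI counts per cell span 1002 to 26847. The deposited cell table also gives the percent of mitochondrial UMIs, cell cycle scores by the authors and their cell types. Raw counts had been allowed for, and the test for values that are not counts was used. Rows without a gene name (15, with 0.0440% of the values) were left out of 16094 named genes, 15368 of which were found in the RefSeq tables. No column lacked a mouse.

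The deposited values were averaged over cells per mouse and class, scaled to 1000000 and by TMM factors over the 8 averages (edgeR 4.0.16). Genes reaching 10 in 2 mice or more went into limma 3.58.1 (trend, two-sided) on log2 of the value plus 10, with Benjamini-Hochberg adjustment and a threshold of 0.05 in R 4.3.3. Cells per type were tested with edgeR's quasi-likelihood fit, and shares with exact permutation tests (SciPy 1.17.1). The limma fits of Ccl5-high cells and of the difference between classes were run on simulated mice with known changes. Every gene was given the same assumed spread, and changed genes were drawn from those above a minimum level in both classes. RNA of other cell types and differing cell mixtures were not simulated. False calls were 6.76% of all calls in the first and 11.7% in the second. Log2 changes of 1 were recovered for 46% and 14% of genes, and changes of 2 for 92% and 69%. These rates describe the simulated mice and do not carry over to the calls above, because the real mice can differ in those ways. The Ccl5-low fit, the edgeR fit and the permutation tests were not simulated. The members and gene lists were chosen with earlier results of these data known. Named genes were list members, the 15 highest and 15 lowest called changes with separated groups, the 10 smallest p for the difference between classes, and the 15 highest and 10 lowest differences in level between classes.

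Of 4001 cells with T cell receptor chains, 3436 had an alpha and a beta chain that could be told apart. Trac, Trbc1, Trbc2 and Trdc were not analysed here, and some other genes are counted in their lists but not reported here. Groups follow the labels. Nothing says that the mice came from separate litters or days, so p-values speak for these 4 mice only. Those of limma and edgeR lean on a spread shared over genes or cell types, beside the spread between the mice. Alternatives covered scaling, pseudocount, filters, the Ccl5 cutoff, cells kept, the clone rule and leaving out each mouse.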

Additional observations from a re-analysis of the deposited data

Results flagged for a closer look

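Each of the 9 results here is a gene whose change in SLE.yaa over WT differed between Ccl5-high and Ccl5-low CD8 T cells by a test of the difference itself (limma on within-mouse differences, adjusted over 7857 genes). They are among the 10 with the smallest p, each kept its direction in the 4 fits that leave out 1 mouse, and no explanation was tested. The genes were chosen from these same mice, and such fits leave 1 mouse in a group, so the kept direction is no independent support. The Ccl5-low value of SLE.yaa 2 rests on 51 cells throughout.

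In 4 genes the change was lower in Ccl5-high cells. Ly6c2 differed by -1.92, Igfbp4 by -1.91 (-1.27 without SLE.yaa 2), Id3 by -1.89 and Nsg2 by -1.57. Nsg2 stood at 123 and 58.5 vpm in Ccl5-high cells of the SLE.yaa mice, against 269 and 279 vpm in those of the WT mice. In Ccl5-low cells it stood at 238 and 246 vpm, against 238 and 249 vpm.

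In the other 5 the change was higher in Ccl5-high cells. Itga4 differed by 1.35, Lsp1 by 1.11 and Emp3 by 1.10. Lsp1, an actin-binding protein of leukocytes, stood at 778 and 830 vpm in Ccl5-high cells of the SLE.yaa mice, against 422 and 328 vpm in those of the WT mice, and at 330 and 322 vpm in Ccl5-low cells, against 354 and 310 vpm. The remaining pair are B cell markers, Cd74 (2.81) and Cd79a (2.80). Cd79a stood at 125 and 118 vpm in Ccl5-high cells, against 17.1 and 84.5 vpm, and at 16.0 and 46.7 vpm in Ccl5-low cells, against 97.4 and 88.7 vpm. Without WT 1 the difference was 1.84 for Cd79a and 1.78 for Cd74. That of Cd74 was 1.23 without SLE.yaa 1 and 4.39 without SLE.yaa 2. Without cells holding a defining B cell or myeloid marker, the call of Cd74 was lost. The part of B cell RNA in the other 7 was not tested beyond that alternative, under which each stayed called.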

How the results depend on the processing

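The count of called genes in Ccl5-high cells (433, with 293 higher and 140 lower) stayed within 1.5 times under most settings. It was 287, with 85 lower, at a minimum of 50 vpm in 2 mice, where fewer genes are tested. Averaging the ln values gave 46 lower genes, cells with Cd8a or Cd8b1 and no Cd4 gave 77 lower, and cells with a usable receptor pair, an alternative chosen after seeing the data, gave 280, with 53 lower. Without cells holding at least 2 pooled markers of the B cell, plasma cell, myeloid, neutrophil and erythroid lists, 4 genes were called, 4 higher and 0 lower. In that setting Gzma (-1.44), Zeb2 (-0.080), Phf11b (-0.14), Gbp3 (-0.52) and Ahnak (-0.077) reversed. Gzma also reversed without WT 2 (-0.79, against 2.15 without WT 1) and Ckb with usable receptor pairs only (0.071), and the causes were not tested. Leaving out each mouse gave 140 to 369 genes in all, 99 to 236 higher and 24 to 133 lower. The lowest total, 140, came without WT 2, while leaving out WT 1 gave 159 and leaving out SLE.yaa 2 gave 156.

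The 162 genes whose change differed between the classes became 40 to 521 when 1 mouse was left out (40 leaving out WT 2, 49 leaving out WT 1, 521 leaving out SLE.yaa 1). They became 45 without cells holding a defining B cell or myeloid marker, chosen after seeing the data. The log2 change of the Ccl5-high share of all cells (0.61) ranged from 0.27 (without SLE.yaa 2) to 0.89 (without SLE.yaa 1) without 1 mouse, and was called under none of the alternatives run. The mean share of clone cells in SLE.yaa ranged from 15.1% to 21.4% without 1 mouse and was 6.85% for clones of at least 3 cells. Over named genes and alternatives, 1451 values kept direction and side of the threshold, 307 kept direction and lost the call, 8 gained it and 7 reversed. No paired analysis was possible because the replicate numbers only follow the order of the records. Genes that reached 10 vpm in fewer than 2 mice were tested only in the setting without a filter.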
